A study of Mus musculus with 4 samples.

Results

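Notch signalling was followed through 10 genes: the receptors Notch1, Notch2 and Notch3, the ligands Jag1, Jag2 and Dll4, and Hes1, Hey1, Heyl and Nrarp, which are known as transcriptional targets of the pathway. They were chosen by name out of the 50766 genes of the count table, and every one had counts. Their transcripts were counted in single cells from the livers of 4 mice (Mus musculus) of genotype Sox9EGFP, labelled as biliary epithelial cells (BECs, the cells lining the bile ducts). Of these mice, 2 had sham surgery and 2 had their bile duct ligated (BDL), which obstructs the flow of bile, and all were taken 7 days later, with 1 library per mouse (n = 2 per group, called a pair below). Sox9EGFP is known as a reporter allele in which cells that use the Sox9 gene become fluorescent. All 4 mice carried it, and the labels give no age, no sex and no sorting gate.

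Notch receptors are cell-surface proteins that are activated by ligands of the Jagged and Delta-like families on neighbouring cells. Activation releases the receptor's intracellular domain by proteolysis, and this domain joins the DNA-binding protein RBPJ and Mastermind coactivators in the nucleus to turn on genes such as those of the Hes and Hey families. In the liver, Jag1 and Notch2 are known for their requirement in bile duct formation, and human mutations in either gene cause Alagille syndrome, in which bile ducts are too few.

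Group names inside the deposited cell tables went against the sample labels for 2 of the 4 libraries. The library labelled sham replicate 2 is named BDL there, and the library labelled BDL replicate 2 is named sham. Groups below are the sample labels, so "sham" and "BDL" stand for the libraries labelled so, and the values of sham replicate 1 and BDL replicate 1, where both names match, are given by themselves beside the main results. No cell barcode was shared between libraries. The libraries held 2089 to 4065 cells and 10024577 to 33809650 unique molecular identifiers (UMIs, which count captured transcripts). Clustering and marker genes gave 10951 BEC-like, 813 mesenchymal-like and 215 endothelial-like cells. BEC-like cells made up 81.2% to 94.2% of each library. The median BEC-like cell had 3302 and 2760 UMIs in the sham pair and 7133 and 7876 in the BDL libraries. Most BEC-like cells fell into different clusters in the 2 groups: clusters c0, c1, c4 and c5 drew 96.7% to 99.5% of their cells from the libraries labelled sham, and c2, c3, c6, c7, c8, c10 and c11 drew 0.136% to 3.54% from them. Sham replicate 2 had 28.4%, 33.0%, 25.9% and 11.8% of its BEC-like cells in c0, c1, c4 and c5. Sham replicate 1 had 35.8%, 24.5%, 19.4% and 18.3% there, and each BDL library at most 1.17% in any of them. By cluster, the 2 libraries with contradicting names thus lay with the library of the same label whose names match. Notch1, Dll4 and Hes1 were among the 2000 variable genes that the clustering used, so their differences between clusters are descriptions.

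RefSeq promoter sequences (assembly GRCm38.p6; the count tables use another build) were found for 7 of the 10 genes, and none for Hes1, Hey1 and Heyl. The 250 bases upstream of the start site of Notch1 (chr2:26503823-26504072, minus strand) and of Jag1 (chr2:137116521-137116770, minus strand) are shown because this receptor and this ligand moved in opposite directions in BEC-like cells. Both are printed 5′ to 3′, with capitals marking a match to any of 3 motifs searched on both strands.
Notch1: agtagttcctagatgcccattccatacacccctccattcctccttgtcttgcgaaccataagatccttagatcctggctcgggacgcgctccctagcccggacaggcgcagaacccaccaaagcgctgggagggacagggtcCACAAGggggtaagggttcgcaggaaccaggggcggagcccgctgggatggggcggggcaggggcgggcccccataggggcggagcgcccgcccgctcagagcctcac
Jag1: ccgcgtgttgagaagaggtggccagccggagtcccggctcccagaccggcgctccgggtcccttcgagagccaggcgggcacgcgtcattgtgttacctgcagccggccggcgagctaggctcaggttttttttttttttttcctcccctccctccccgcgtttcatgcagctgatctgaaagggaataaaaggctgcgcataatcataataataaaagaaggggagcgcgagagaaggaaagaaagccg

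The RBPJ motif GTGGGAA was in none of the 7 windows, against 5.42% of 32851 mouse promoter windows of the same length. The N-box CACNAG, a motif of Hes proteins, was in 5 of 7 (Dll4, Notch1, Notch2, Notch3 and Nrarp), against 36.7% of all windows. The E-box CACGTG, a motif of Hey proteins, was in that of Nrarp alone, against 6.02% of all windows. A match is a description of letters and shows no binding.

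The 3 cell classes differed in which Notch genes they held. Levels across classes are in CPM (the gene's UMIs in all cells of a class in 1 library, scaled to a total of 1000000 UMIs), and the classes were defined from the same cells, so these levels carry no test. Dll4 was highest in endothelial-like cells, at 144 and 124 CPM in the sham pair and 155 and 206 in the BDL libraries. Mesenchymal-like cells had 0 to 17.6 CPM of this ligand and BEC-like cells 0.470 to 1.08, and the ranges of these 2 classes overlapped. The Dll4 level in BEC-like cells averaged 0.431% of the endothelial-like level. That lies inside the range of 0.0792% to 3.75% given there by 14 endothelial marker genes, whose median was 0.236%. Whether the Dll4 UMIs of BEC-like cells are background was not tested.

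Notch1 followed the order endothelial-like, mesenchymal-like, BEC-like. Its levels were 213 to 304 CPM in endothelial-like cells, 120 to 164 in mesenchymal-like cells and 11.6 to 52.1 in BEC-like cells, with no overlap between classes. The BEC-like level was 16.2%, 24.4%, 4.80% and 4.01% of the endothelial-like level in sham replicates 1 and 2 and BDL replicates 1 and 2. In the sham pair these values were above those of all 14 endothelial markers, of which Pecam1 was highest at 3.59% in both. In BDL replicates 1 and 2 they were below that of the marker Flt4 (5.37% and 4.61%) and above those of the other 13. Only Flt4 thus put the remaining Notch1 level inside the range of the markers. The next highest were Pecam1 at 1.2% in BDL replicate 1 and Tek at 0.592% in BDL replicate 2. Flt4 in BEC-like cells was at 4.52 and 6.34 CPM in the sham pair and 18.5 and 22.2 in the BDL libraries. Whether the remaining Notch1 UMIs are background was not tested. Notch2 had the highest mean in BEC-like cells, at 194 to 243 CPM. Its ranges in mesenchymal-like cells (98.6 to 225 CPM) and endothelial-like cells (20.7 to 144 CPM) overlapped each other, and that of mesenchymal-like cells overlapped the BEC-like range. Notch3 was highest in mesenchymal-like cells, at 44.8 to 68.7 CPM, against 5.64 to 15.5 in BEC-like cells. Endothelial-like cells gave 1 Notch3 UMI in all 4 libraries.

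Among the ligands, Jag1 was shared by all 3 classes with overlapping ranges: 91.0 to 155 CPM in BEC-like, 72.6 to 109 in mesenchymal-like and 75.7 to 114 in endothelial-like cells. Jag2 was low everywhere, with 182 UMIs in BEC-like cells (2.01 to 5.96 CPM), 3 in mesenchymal-like cells and 2 in endothelial-like cells. Among the targets, Heyl was highest in mesenchymal-like cells (20.8 to 68.2 CPM), against 1.32 to 5.49 in BEC-like cells. It had 0 UMIs among 396933 in endothelial-like cells, which allows up to 7.56 CPM. Hey1 reached 30.5 to 48.2 CPM in 3 endothelial-like libraries and 0 in sham replicate 1, where the 62502 UMIs allow up to 48.0 CPM. Hey1 lay at 5.54 to 10.8 CPM in mesenchymal-like and 1.38 to 5.14 in BEC-like cells. Hes1 was at 224 to 413 CPM in endothelial-like, 195 to 269 in mesenchymal-like and 92.4 to 217 in BEC-like cells, with neighbouring ranges overlapping. Nrarp ranged from 2.87 to 4.98 CPM in BEC-like cells and rested on 6 UMIs in each other class.

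**Figure D1:**
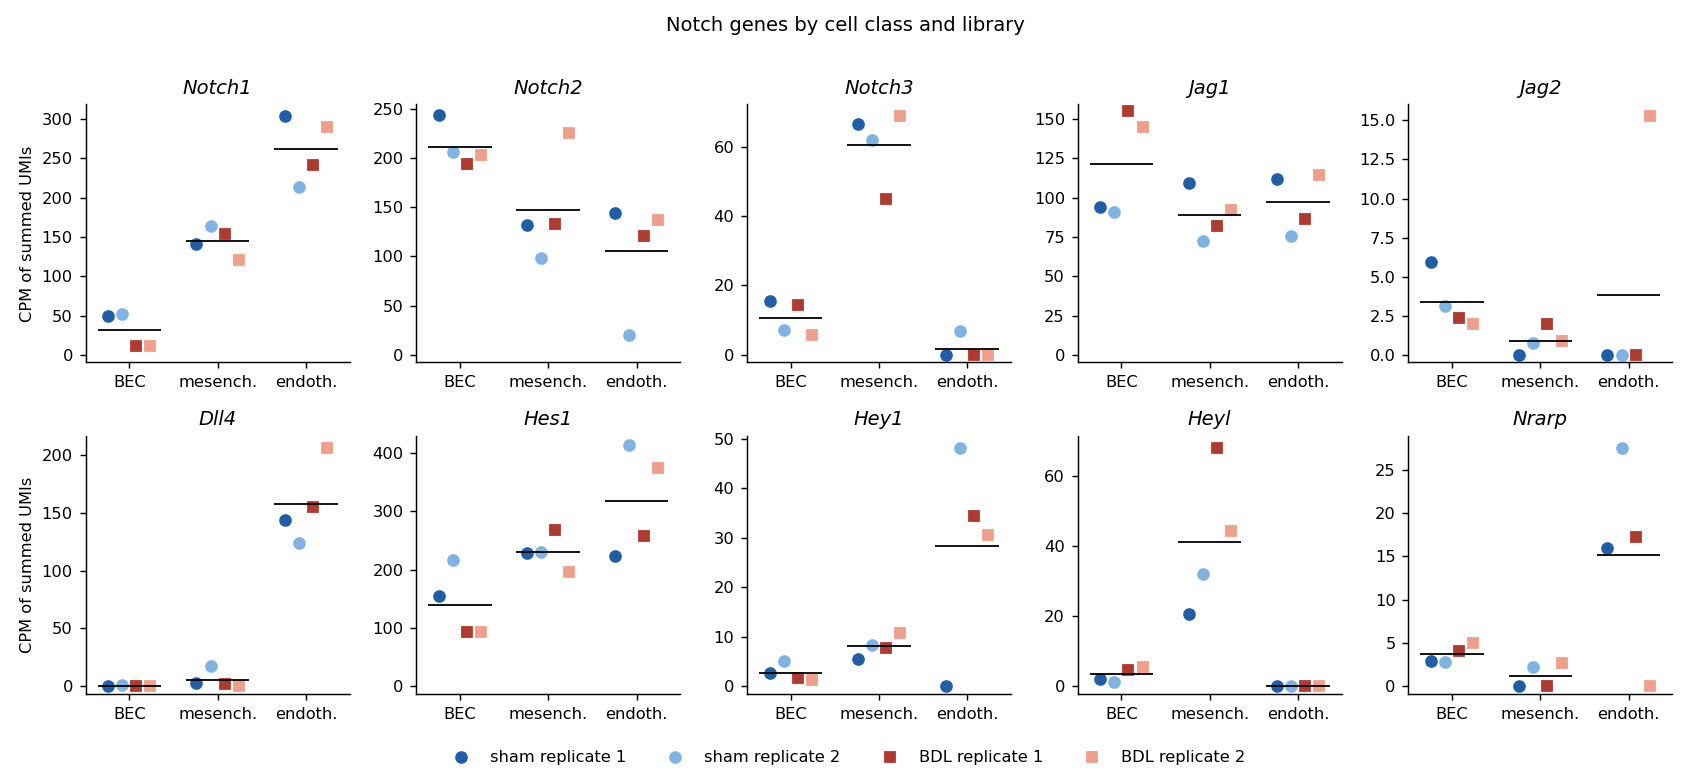
CPM of each of the 10 Notch genes (vertical axes, linear, each gene on its own scale) in the summed BEC-like, mesenchymal-like and endothelial-like cells of every library; points are libraries and horizontal lines are means of the 4 libraries. Dll4 reaches 124 to 206 CPM in endothelial-like cells and at most 1.08 CPM in BEC-like cells, and Notch3 and Heyl are highest in mesenchymal-like cells.

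Levels of different genes were set side by side per length, though whether UMI counts here grow with exon length was not tested. Undivided, the mean BEC-like levels were 211 CPM for Notch2, 139 for Hes1 and 121 for Jag1, so their order depends on the division. Divided by the kilobases of exon sequence, the mean BEC-like levels were 68.4 CPM per kb for Hes1, 20.8 for Jag1 and 19.6 for Notch2. The other means were lower, and the order among them depends on the group because Notch1 and Heyl differ between groups. Over the libraries Notch1 ran from 0.813 CPM per kb (BDL replicate 1) to 3.66 (sham replicate 2), and Heyl from 0.257 (sham replicate 2) to 1.07 (BDL replicate 2). Nrarp ran from 1.11 to 1.93, Notch3 from 0.698 to 1.92 and Hey1 from 0.422 to 1.57. These 5 genes overlapped in range, except that every Heyl value lay below every Nrarp value. Jag2 had a mean of 0.481 CPM per kb and Dll4 of 0.176. Jag1 and Notch2 overlapped over the libraries, at 15.6 to 26.6 and 18.0 to 22.5 CPM per kb. On the same scale, the mean Dll4 level was 40.8 CPM per kb in endothelial-like cells and the mean Notch1 level 18.4.

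The question of the study's design is how the cells differ 7 days after ligation and sham surgery. In BEC-like cells, Notch1 and Hes1 fell and Jag1 and Heyl rose in the libraries labelled BDL. For this comparison, the UMIs of all BEC-like cells of a library were added up and tested across all genes with edgeR's quasi-likelihood test, two-sided, with Benjamini-Hochberg adjustment, and levels are CPM scaled by TMM (a correction for composition). Of the 10 genes, 9 passed the filter on low counts and 4 had an adjusted p under 0.05, 2 higher and 2 lower. Over all genes 27.2% of 16030 were called, 14.3% higher and 13% lower, and the median log2 fold change was -0.02. The median share of mitochondrial UMIs per cell, a sign of cell quality, also differed between the groups, at 3.89% and 4.73% in the sham pair and 5.09% and 6.03% in the BDL libraries over all their cells, and its part in the results was not tested. The libraries of the groups did not overlap for 8 of the 9 tested genes, against 68.8% of all genes tested.

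Notch1, the receptor gene with the largest change, was at 46.4 CPM in sham replicate 1 and 54.7 in sham replicate 2, and at 11.7 CPM in each BDL library. Both libraries labelled BDL were below both labelled sham, and the BDL pair differed by an SD of 0.0350 CPM. The log2 fold change was -2.11 (SE 0.14, edgeR adjusted p = 0.000396). In the libraries whose 2 names match, the ratio was -1.99 on the log2 scale, with no test. A gene on the table that overlaps Notch1, 0610009E02Rik, had 45, 32, 19 and 60 UMIs in the same sums, against 478, 436, 169 and 371 for Notch1. Whether counting used the strand is not given in the sources used here. The cells were divided over 8 sublibraries, and within each of 7 of these taken alone Notch1 was called (log2 fold changes from -2.47 to -1.92). In sublibrary 1 it was -1.21 (edgeR adjusted p = 0.220).

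Notch2, the receptor known from bile duct formation, was at 230, 216, 196 and 205 CPM in sham replicates 1 and 2 and BDL replicates 1 and 2. The BDL values were the lower ones, but the difference of -0.15 on the log2 scale (SE 0.11) did not pass the test (edgeR adjusted p = 0.329). Notch3 was at 14.7 and 7.40 CPM in the sham pair and 14.4 and 5.70 in the BDL libraries. The groups overlapped, each holding 1 high and 1 low library (log2 fold change -0.18, SE 0.48, edgeR adjusted p = 0.802). Without sham replicate 1 the difference was 0.42, without BDL replicate 2 it was 0.37, and without BDL replicate 1 it was -0.95 (edgeR adjusted p = 0.00552).

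Among the ligands, Jag1 was at 88.8 and 95.4 CPM in the sham pair and 157 and 146 in the BDL libraries. Both BDL libraries exceeded both sham libraries (log2 fold change 0.72, SE 0.11, edgeR adjusted p = 0.00539). Leaving out sham replicate 1 gave 0.67 (edgeR adjusted p = 0.0598), and the pair with matching names gave 0.82 with no test. Jag2, the second Jagged ligand, was at 5.63 and 3.26 CPM against 2.35 and 2.03, a log2 difference of -1.04 that did not pass (SE 0.36, edgeR adjusted p = 0.0729). Without BDL replicate 1 it did, at -1.13 (edgeR adjusted p = 0.0210). Dll4 had 6, 9, 8 and 15 UMIs in the 4 sums and was not tested.

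Hes1, a transcriptional repressor and the most abundant of the targets here, was at 146 CPM in sham replicate 1 and 228 in sham replicate 2, and at 93.4 and 94.2 CPM in the BDL libraries. The sham libraries differed from each other by more than either BDL library differed from sham replicate 1, and both lay above the BDL libraries. The log2 fold change was -0.99 (SE 0.20, edgeR adjusted p = 0.0143). It rested on sham replicate 2, one of the libraries with contradicting names: without it the value was -0.62 (edgeR adjusted p = 0.0657), and the pair with matching names gave -0.64.

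Heyl, a Hey-family repressor, moved the opposite way to Hes1, from 2.04 and 1.38 CPM in the sham libraries to 4.84 and 5.54 in the BDL libraries (21, 11, 70 and 175 UMIs). The groups did not overlap, and the log2 fold change was 1.59 (SE 0.32, edgeR adjusted p = 0.0138). It was 1.92 without sham replicate 1 (edgeR adjusted p = 0.0546) and 1.37 without sham replicate 2 (edgeR adjusted p = 0.0902). The pair with matching names gave 1.25. Heyl in BEC-like cells averaged 8.32% of its mesenchymal-like level, while 16 mesenchymal marker genes had a median of 0.147% there (0.0128% to 106%, the highest being Rgs5). The summed level of these markers in BEC-like cells was 365 and 261 CPM in the sham pair and 1246 and 1533 in the BDL libraries, most of it Rgs5, and of the 11 tested 2 rose and 2 fell. None was at 0 in all libraries. Col1a1, a collagen gene that defines the class, was at 2.53 to 5.42 CPM in BEC-like cells and 0.0932% of the mesenchymal-like level.

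Hey1 was at 2.62 and 5.39 CPM against 1.73 and 1.39 (log2 difference -1.36, SE 0.44, edgeR adjusted p = 0.0595). It passed without BDL replicate 1, at -1.47 (edgeR adjusted p = 0.00939), and with no filter on low counts, at -1.22 (edgeR adjusted p = 0.0125). Nrarp, which encodes a protein that restrains the Notch transcription complex, was at 2.82 and 3.01 CPM against 4.08 and 5.03 (log2 difference 0.66, SE 0.28, edgeR adjusted p = 0.130). Its BDL libraries were both higher, without passing the test. The 4 targets thus did not share a direction: Hes1 fell, Heyl rose, and Hey1 and Nrarp did not pass.

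**Figure D2:**
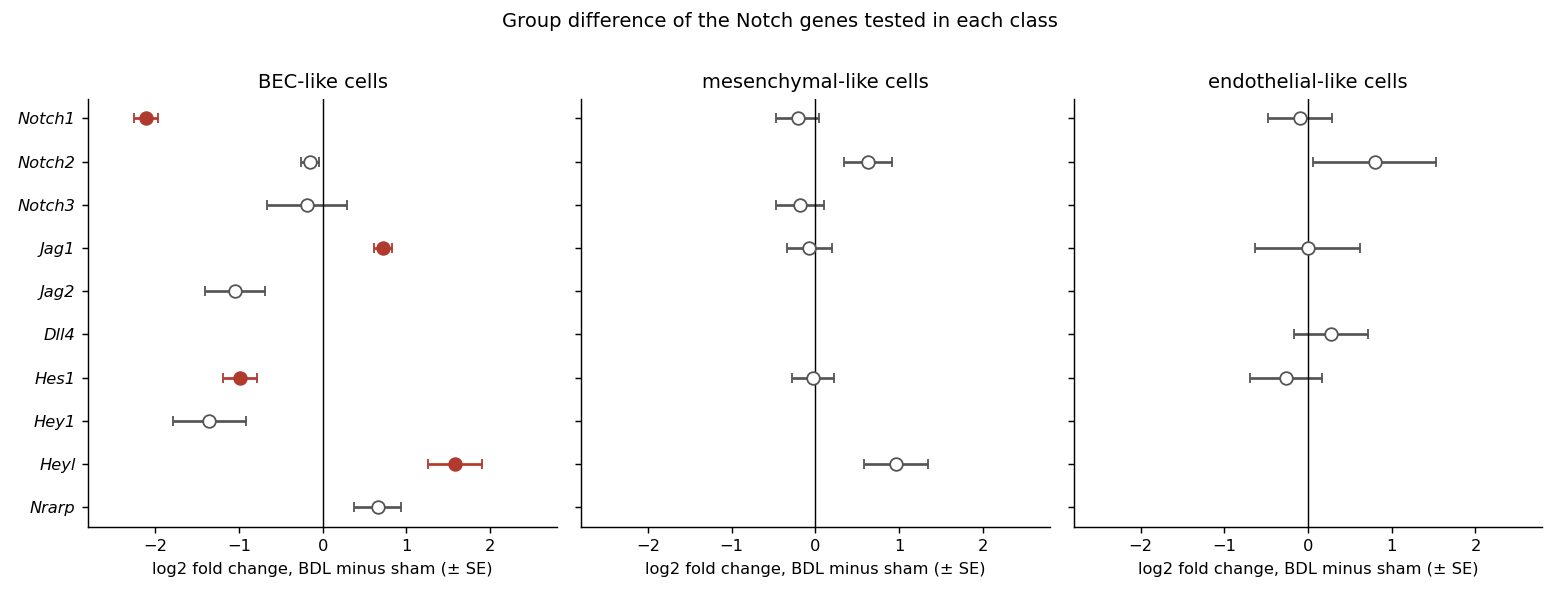
Log2 fold change between the libraries labelled BDL and sham (horizontal axis, bars are ± SE) of every Notch gene that passed the filter on low counts, by cell class; filled red points had an edgeR adjusted p under 0.05 and open points did not. Notch1, Jag1, Hes1 and Heyl are filled in BEC-like cells (-2.11, 0.72, -0.99 and 1.59), and no point is filled in the other classes.

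The lower Notch1 level was found in each cluster that held mainly cells labelled BDL. Over clusters with at least 30 cells in a library, Notch1 lay between 41.2 and 59.1 CPM in the 8 sham values and between 3.81 and 23.8 CPM in the 14 BDL values. It was low in c2, led by Nos2 and Ccl20 (7.66 and 3.81 CPM), and in c3 (7.48 and 9.87 CPM), and highest among BDL clusters in c7, led by Dmbt1 (15.8 and 23.8 CPM), and c8, led by Wnt9a (17.1 and 23.7 CPM). Jag1 ranged from 59.1 to 123 CPM in the sham values and from 98.4 to 173 CPM in the BDL values. Its lowest values were in c4, led by Car4 and Tmeff2 (59.1 and 66.9 CPM), and its highest in c2 (173 and 168 CPM).

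Hes1 varied among clusters of the same group. It was at 238 and 394 CPM in c1, against 94.8 and 110 in c4, both of sham cells, and at 209 and 283 CPM in c8, against 48.9 and 56.8 in c2, both of BDL cells. Clusters c1 and c8 held 36.8% and 57.1% of the Hes1 UMIs of BEC-like cells in the sham pair, with 24.9% and 33.0% of the cells. In the BDL libraries these clusters held 25.0% and 26.3% of the UMIs, with 13.4% and 10.4% of the cells. Without them Hes1 was at 128 and 136 CPM in the sham pair and 77.9 and 75.3 in the BDL libraries, a log2 difference of -0.79 with no test.

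The early-response genes Fos and Jun, picked after their values were seen, varied among the clusters too. Fos reached 4293 CPM in c1 and 2315 in c8, against 173 to 1595 in the other BEC-like clusters. Jun reached 5343 CPM in c1, but its 1988 CPM in c8 was below the 2456 of c5. In all BEC-like cells Fos was at 1462 and 2118 CPM in the sham pair and 533 and 441 in the BDL libraries, and Jun at 2043 and 2949 against 569 and 496. Their part in the Hes1 result was not tested. Their part in the Notch1 result was not tested either.

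Hepatocyte markers moved with the groups as well. The summed level of 10 such genes in BEC-like cells was 1163 and 1229 CPM in the sham pair and 156 and 128 in the BDL libraries, none was at 0 in all libraries, and of 9 tested 4 fell and 1 rose. In the 34 hepatocyte-like cells of c17, which met the limits for 0 biliary markers, 0 UMIs of Notch1 were found, which allows up to 22.1 CPM, and 3 of Hes1. The part of hepatocyte RNA in the results was not tested.

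Notch3 was concentrated in 2 clusters, 1 in each group. It reached 64.4 and 48.9 CPM in c5 of the sham pair and 90.5 and 71.5 in c11 of the BDL libraries, against at most 15.8 CPM in any other BEC-like cluster. Both clusters were also the ones with the most Tll2 (346 and 273 CPM, against at most 36.7 elsewhere in BEC-like cells) and Krt78 (1194 and 499 CPM). Clusters c5 and c11 held 80.1% and 79.7% of the BEC-like Notch3 UMIs in the sham pair, with 18.5% and 11.8% of the cells, and 65.9% and 35.6% in the BDL libraries, with 11.1% and 3.08% of the cells. Without them Notch3 was at 3.84 and 1.62 CPM in the sham pair and 5.44 and 3.74 in the BDL libraries, a log2 difference of 0.75 with no test, against -0.18 with them.

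Some markers of other cells were also highest in c5 and c11 among the BEC-like clusters, at levels below those in the class they mark. Pdgfrb, a pericyte and fibroblast receptor, was at 1.38 CPM in c5 and 1.65 in c11 (4 UMIs each), against at most 1.01 in the other BEC-like clusters and 224 to 362 in the mesenchymal-like clusters. The smooth-muscle gene Myh11 was at 3.11 and 4.95 CPM, against at most 1.68 and 33.7 to 290.5 in these. Col1a1 was at 4.49 and 5.36 CPM, against 2.35 to 5.24 in the other BEC-like clusters and 734 to 7615 in the mesenchymal-like ones. The summed level of the smooth muscle markers was 14.5 and 21.9 CPM in c5 and c11, against 2.52 to 8.01 in the other BEC-like clusters and 133 to 887 in the mesenchymal-like ones. Pecam1, an endothelial adhesion gene, was high in the same clusters (194 and 90.3 CPM, against at most 8.29 in the other BEC-like clusters) and so was Stab2, a scavenger receptor gene of sinusoidal endothelium (7.25 and 4.95 CPM, against at most 1.42), while Cdh5 was at 1.04 and 0.413. The endothelial markers summed to 236 and 150 CPM there, against 20.5 to 37.8 in the other BEC-like clusters and 6429 and 9358 in the endothelial-like ones. The part of these cells in the Notch3 level was not tested.

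**Figure D3:**
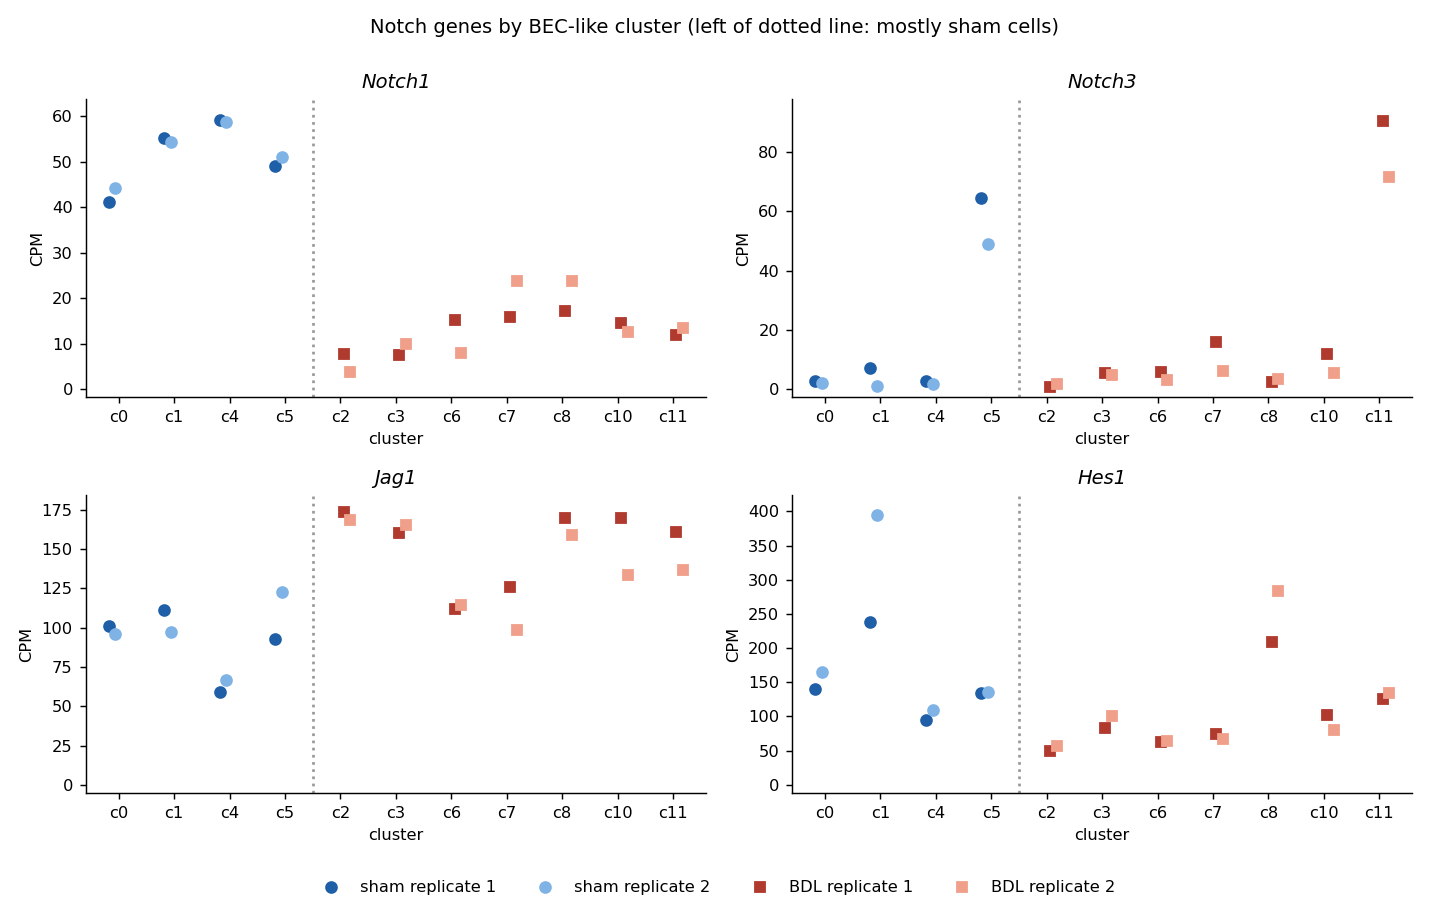
CPM (vertical axes, linear) of Notch1, Notch3, Jag1 and Hes1 in each BEC-like cluster, for libraries with at least 30 cells in the cluster; points are libraries, and the dotted line parts clusters made mainly of cells labelled sham (left) from those labelled BDL (right). Notch1 is at 41.2 CPM or more left of the line and at 23.8 CPM or less right of it, and Notch3 stands out in c5 and c11.

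In mesenchymal-like cells, a class named from markers of fibroblasts and stellate cells, edgeR called none of the 6 Notch genes that passed the filter, against 5.8% of 8766 genes (2.33% higher and 3.47% lower). At an unadjusted p under 0.05 there was 1 (Heyl), and DESeq2 called 0. The groups did not overlap for 2 of the 6, against 52.4% of all genes tested. The sums held 71 to 422 cells. Notch1 was at 143 and 178 CPM in the sham pair and 161 and 120 in the BDL libraries, with overlapping groups (log2 fold change -0.21, SE 0.25, edgeR adjusted p = 0.691). Notch2 was at 133 and 107 CPM against 138 and 225 (0.63, SE 0.28, edgeR adjusted p = 0.237), and only BDL replicate 2 stood clearly above the rest. Notch3 was at 67.1 and 67.0 against 46.8 and 68.5 CPM (-0.18, SE 0.29, edgeR adjusted p = 0.779).

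Jag1 in mesenchymal-like cells was at 110 and 78.6 CPM in the sham pair and 85.5 and 92.0 in the BDL libraries, a log2 difference of -0.07 (SE 0.27, edgeR adjusted p = 0.915). Hes1 was at 231 and 249 against 281 and 195 CPM, a log2 difference of -0.03 (SE 0.25, edgeR adjusted p = 0.966). Both genes overlapped between the groups. Heyl was at 21.0 and 34.7 CPM against 71.3 and 44.2, both BDL libraries being higher, with a log2 difference of 0.96 (SE 0.38, edgeR adjusted p = 0.184). Dll4 gave 2, 23, 1 and 0 UMIs and fell under the filter. With no filter it was called lower in the BDL libraries (edgeR adjusted p = 0.00401), on UMIs that came almost all from 1 library, sham replicate 2. Jag2, Hey1 and Nrarp had at most 12 UMIs in any library.

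The mesenchymal-like clusters differed in their Notch genes and in the groups they came from. Cluster c9, led by Colec10 and Hhip, made up 57.4% and 76.3% of the class in the sham pair and 38.0% and 16.7% in the BDL libraries. It had the most Notch1, at 226 and 216 CPM in the sham pair, and 24 of the 26 Dll4 UMIs of the class. Cluster c14, led by Npy1r and C7, had 33.0% and 19.9% of the class in the sham pair and 1 cell in the BDL libraries. It had the most Notch3, at 180 and 248 CPM, against 11.4 and 13.8 in c9.

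Cluster c13, led by Has2, Gdnf and Fbn2 and high in collagen genes, held 60.6% and 83.3% of the class in the BDL libraries and 9.57% and 3.79% in the sham libraries. Its Notch2 level was 156 and 244 CPM in the BDL libraries, against 71.4 and 92.9 in c9 and 94.2 and 111 in c14 of the sham libraries. Heyl was at 84.9 and 43.6 CPM in c13 and at 34.2 and 86.3 CPM in c14, and lower in c9, with 7 and 15 UMIs in the sham pair (17.2 CPM in sham replicate 2). A value for the whole class in the BDL libraries is therefore mainly that of c13, and a value in the sham libraries mainly that of c9 and c14.

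**Figure D4:**
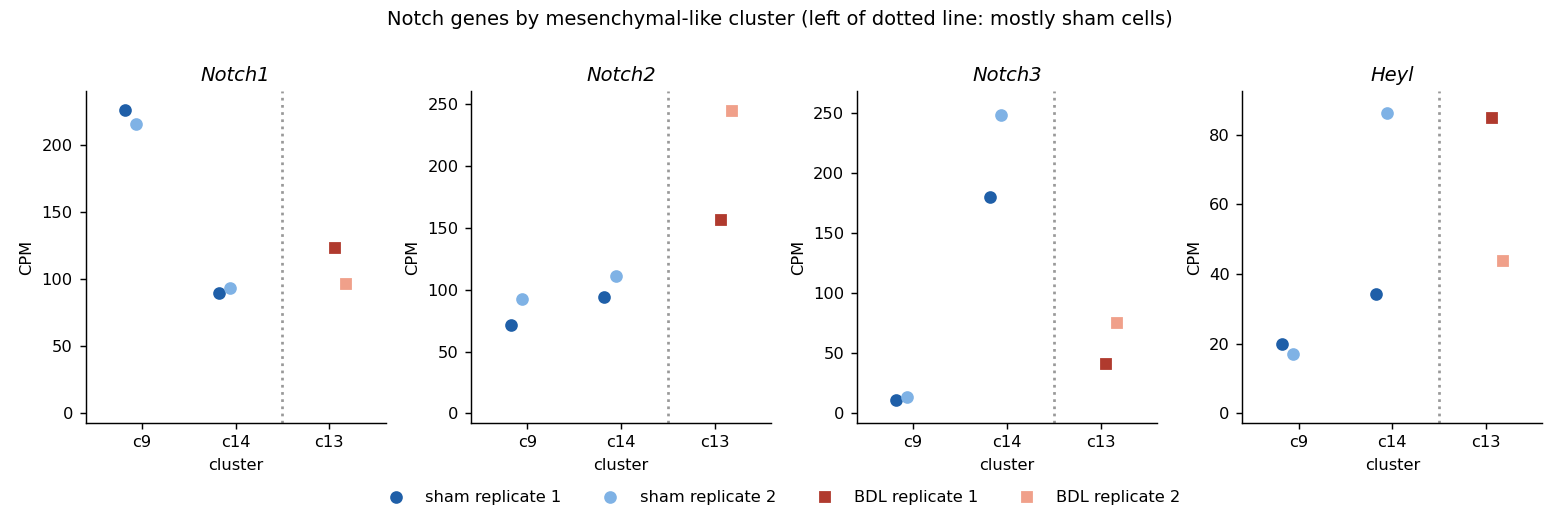
CPM (vertical axes, linear) of Notch1, Notch2, Notch3 and Heyl in the 3 mesenchymal-like clusters, for libraries with at least 30 cells in the cluster; points are libraries, and the dotted line parts the clusters made mainly of cells labelled sham (left) from that labelled BDL (right). Notch1 is highest in c9, Notch3 in c14 and Notch2 in c13.

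In endothelial-like cells, which line the hepatic vessels, edgeR called none of the 5 Notch genes tested, against 1.52% of 2037 genes (0.638% higher and 0.884% lower), and 0 had an unadjusted p under 0.05 or were called by DESeq2. The groups did not overlap for 1 of the 5, Dll4, against 46.7% of all genes tested. These sums were small, at 19 to 122 cells and 58043 to 145278 UMIs. Dll4, known in endothelium as the ligand that guides vessel sprouting, was at 186 and 190 CPM scaled by TMM in the sham pair and 198 and 248 in the BDL libraries (log2 difference 0.27, SE 0.44, edgeR adjusted p = 0.816). Notch1 was at 394 and 327 CPM against 308 and 348 (-0.10, SE 0.38, edgeR adjusted p = 0.929). Hes1 was at 290 and 633 CPM against 330 and 449 (-0.27, SE 0.43, edgeR adjusted p = 0.817).

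The other endothelial-like values were as wide. Jag1 was at 145 and 116 CPM in the sham pair and 110 and 138 in the BDL libraries (log2 difference -0.0047, SE 0.63, edgeR adjusted p = 0.998). Notch2 was at 186 and 31.6 against 154 and 165 CPM (0.80, SE 0.73, edgeR adjusted p = 0.657). The class had 2 clusters. In c12, led by genes that include Stab2 and Clec4g of the sinusoids, pooled libraries gave 26.1 CPM of Notch2 (8 UMIs, exact Poisson 95% interval 11.3 to 51.5) and 255 of Hes1 (202 to 318). In c19, 22 cells led by Mmrn1, Ccl21a and Lyve1, they gave 319 CPM of Notch2 (29 UMIs, 213 to 458) and 659 of Hes1 (503 to 849). These intervals cover counting error only. Cluster c19 was 7.50% and 2.46% of the class in the sham pair and 15.8% and 38.2% in the BDL libraries.

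Whether the group difference itself differed between classes was tested as a class-by-group interaction in edgeR. The sums of both classes came from the same 4 mice, and the model included the library as a block. For Notch1 the log2 fold change in BEC-like cells was more negative than in mesenchymal-like cells (difference -1.93, SE 0.29, edgeR adjusted p = 0.000185), with 5.31% of 15315 genes called. Against endothelial-like cells it was -2.11 (SE 0.55, edgeR adjusted p = 0.0239), with 0.736% of 14001 genes called. The first was called under all 10 alternatives tried (highest edgeR adjusted p = 0.0115). The second was called under 4 of 10 alternatives. It was lost without sham replicate 1 (edgeR adjusted p = 0.218), without sham replicate 2 (adjusted p = 1) and without BDL replicate 2 (adjusted p = 0.646).

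For the other genes tested in both classes, no difference between BEC-like and mesenchymal-like cells passed with all cells of the classes in the sums. Hes1 was closest, at -0.97 (SE 0.29, edgeR adjusted p = 0.0550, 0.00722 to 0.582 over 10 alternatives, 3 of them under 0.05). Jag1 was at 0.72 (SE 0.31, edgeR adjusted p = 0.230, 0.0480 to 0.729 over the alternatives) and Notch2 at -0.80 (SE 0.31, edgeR adjusted p = 0.167, 0.00941 to 0.768). The lowest value of each of these 3 ranges came from the sums without the highest doublet scores, the only alternative that called Jag1 and Notch2. Heyl was at 0.57 (SE 0.55) and Notch3 at -0.17 (SE 0.49), with edgeR adjusted p of 0.678 and 0.920. The Jag1, Heyl and Hes1 changes are thus called in BEC-like cells, while the call of a difference from mesenchymal-like cells depends on the alternative for Jag1 and Hes1 and was not made for Heyl. Against endothelial-like cells Hes1, Jag1 and Notch2 were at -0.88, 0.59 and -1.12, none called (lowest edgeR adjusted p = 0.853).

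The share of cells with a UMI was also compared. With every cell thinned to 1000 UMIs, 4.98% and 5.05% of BEC-like cells of the sham pair and 1.02% and 1.08% of the BDL libraries had a Notch1 UMI. For Jag1 the shares were 8.22% and 7.95% against 14.2% and 12.6%. For Hes1 they were 13.2% and 17.6% against 9.43% and 8.84%. In BEC-like cells the libraries of the groups were apart for all 3 genes, and also for Jag2, Hey1, Heyl and Nrarp. Each had an exact permutation p = 0.33, two-sided, the smallest that 2 against 2 libraries allow. The portion of all genes that is apart in this measure was not counted, and in the sums it was 68.8%. In mesenchymal-like cells the Notch1 shares were 14.8% and 18.4% in the sham pair and 11.3% and 9.85% in the BDL libraries, also apart (exact permutation p = 0.33), whereas the sums overlapped. In endothelial-like cells 16.7% to 26.5% had a Notch1 UMI at the same depth, and in BEC-like cells 0.0395% to 0.132% had one of Dll4. The thinning left out 77 and 104 BEC-like cells of the sham pair and 0 of the BDL libraries. Unthinned, the Hes1 difference was 1.12 percentage points in place of -6.24 (the median depths of the libraries are given above).

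Other genes of the pathway changed in both directions in BEC-like cells. Of a list of 58 receptors, ligands, processing enzymes, cofactors and regulators outside the 10 genes, 48 were tested, 10 rose, 8 fell and 30 did not pass, so 37.5% were called against 27.2% of all genes. The median log2 fold change of the 48 was 0.16, against -0.02 over all genes. The count and its distance from the background depend on single libraries. Without sham replicate 1, 4 of 50 genes were called (8%, against 7.66% of all genes), so the list then stood at the background. Without sham replicate 2, 8 of 50 were called (16%, against 8.34%). Without BDL replicate 1 it was 24 of 49 (49.0%, against 39.2%), and without BDL replicate 2 it was 14 of 49 (28.6%, against 25.5%). The 8 genes with the smallest adjusted p are described here.

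Neurl1a, which encodes a ubiquitin ligase of the Neuralized family, known to act on Notch ligands, was at 4.95 and 7.02 CPM in the sham pair and 45.2 and 61.1 in the BDL libraries (log2 fold change 3.17, SE 0.23, edgeR adjusted p = 0.000475). Tle2, a Groucho-type corepressor, fell from 15.6 and 15.7 CPM to 4.15 and 5.41 (-1.69, SE 0.21, edgeR adjusted p = 0.00239). Its relatives went separate ways: Tle3 rose from 105 and 105 CPM to 167 and 190 (0.77, edgeR adjusted p = 0.00488), and Tle4 fell from 379 and 353 to 232 and 207 (-0.74, edgeR adjusted p = 0.00606). All 4 of these genes were apart between the groups, as were 68.8% of all genes tested. They were picked by their adjusted p in the same sums, so being apart adds no support.

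Maml2, a Mastermind coactivator, rose from 728 and 682 CPM to 1210 and 1174 (log2 fold change 0.76, edgeR adjusted p = 0.00540), and the acetyltransferase gene Kat2b fell from 98.5 and 92.9 CPM to 59.9 and 58.7 (-0.69, edgeR adjusted p = 0.00572). Ncstn, a subunit of the gamma-secretase that cleaves Notch receptors, rose from 26.0 and 27.5 CPM to 44.0 and 53.1 (0.86, edgeR adjusted p = 0.00683). Epn2, an endocytic adaptor, rose from 33.5 and 33.1 to 52.2 and 70.9 CPM (0.89, edgeR adjusted p = 0.0109). In mesenchymal-like cells edgeR called 0 of the 39 genes tested (8 at an unadjusted p under 0.05, 0 by DESeq2), against 5.8% of all genes. Without the cells of the highest doublet scores 4 of 39 were called there (10.3%, against 10.2% of all genes). In endothelial-like cells edgeR called 0 of 16 (1 unadjusted, 0 by DESeq2), against 1.52% of all genes.

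**Figure D5:**
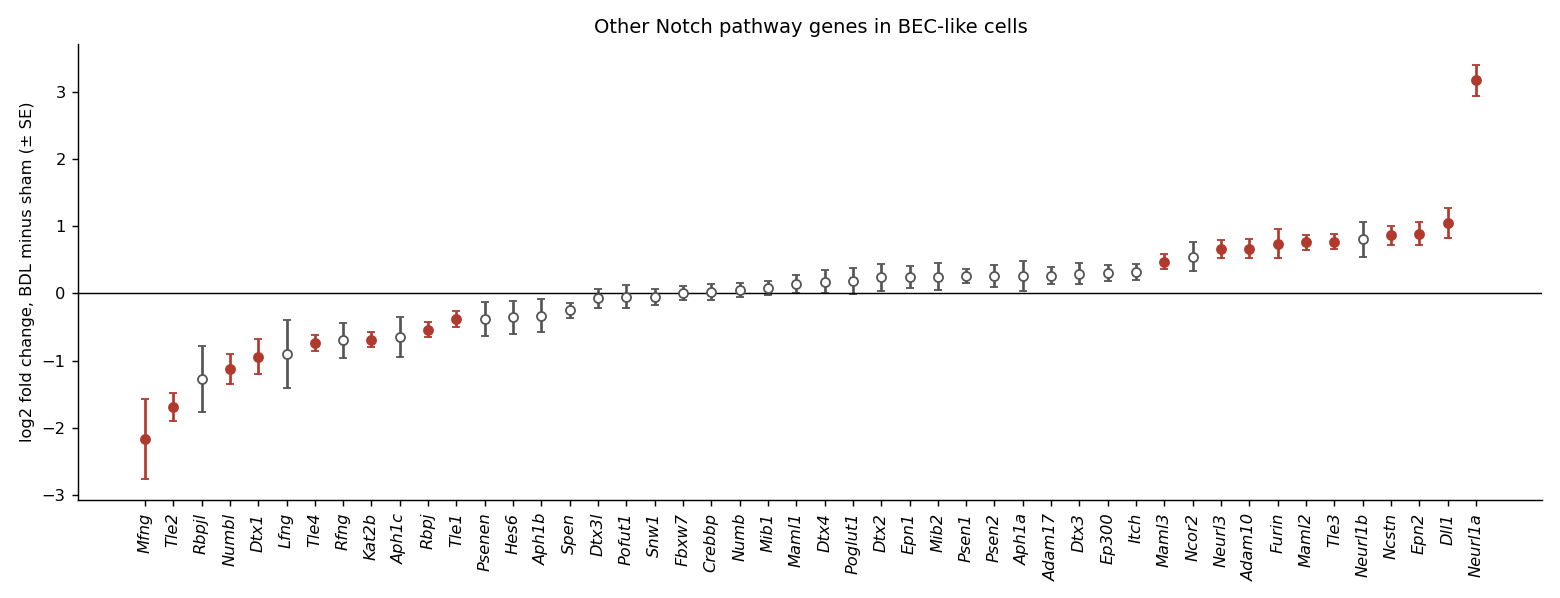
Log2 fold change between the libraries labelled BDL and sham (vertical axis, bars are ± SE) of the 48 other Notch pathway genes tested in BEC-like cells, in order of the change; filled red points had an edgeR adjusted p under 0.05. Of these, 10 lie above 0 and 8 below, from Neurl1a at 3.17 down to Mfng at -2.17.

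The genes most like the Notch genes were listed over the 12 sums of 3 classes by 4 libraries, by Pearson correlation of log2(CPM + 1) among genes of at least 20 CPM on average. The sums of a library share its depth and preparation, and the classes set much of the spread, so the values describe likeness and carry no test. For Notch1 the closest were Klf2 (0.985), Stat3 (0.983) and Mgll (0.969), and Klf2 was also closest to Hes1 (0.923). In BEC-like cells Klf2, a transcription factor gene, was at 23.3 and 38.6 CPM in the sham pair and 3.77 and 3.79 in the BDL libraries. For Notch3 the closest were Ikbip, Agtr1a and Efemp2 (0.976 to 0.978), for Heyl Vcan, Medag and Scarf2 (0.976 to 0.993), and for Dll4 Gatm, Pcna and Col13a1 (0.972 to 0.975). The closest gene to Jag1 was Zdhhc21 (0.911) and to Notch2 Cox6b1 (0.947). The closest to Hey1 was Rps25 (0.905) and to Nrarp Nmt1 (0.907).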

How the data were processed

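Cells from 4 mouse livers were counted by split-pool barcoding with oligo(dT) and random hexamer primers (Evercode Whole Transcriptome, Parse Biosciences), per the labels' protocols. The deposited matrices hold whole-number UMI counts per gene and cell, not normalized, on genome build GRCm39 per the submitters' processing notes. The aligner and cell caller are not given in the sources used here. Of 12211 cells, those with under 500 UMIs or over 20% mitochondrial UMIs were dropped. Scrublet called 11 doublets (0.0902%), and these were removed, leaving 12183 cells. Whether the caller missed doublets was not tested, so doublets may remain. Cells were clustered (2000 variable genes, 30 components, 20 neighbours, Leiden resolution 1; scanpy 1.11.5, leidenalg 0.10.2), and clusters were named from marker lists: at least 3 markers, each in 5% of cells and over 2-fold. Counts were summed per library and class and fitted with edgeR 4.0.16 (TMM, default filter, quasi-likelihood test, adjusted p threshold 0.05). The biological coefficient of variation was 0.165 in BEC-like, 0.213 in mesenchymal-like and 0.245 in endothelial-like sums. When 200 genes of simulated counts were shifted by a log2 change of 2, edgeR recovered 96% of them in BEC-like sums (16030 genes), 88% in mesenchymal-like sums (8766 genes) and 80.5% in endothelial-like sums (2037 genes). DESeq2 recovered 84.5%, 64% and 45%. All genes of a class had the same simulated dispersion. Smaller changes, such as those called for Jag1, Hes1 and Heyl, were not simulated, so their recovery in the other classes is not known. Alternatives were DESeq2 1.42.0, its size factors, other filters, clusterings and depths, removal of the 5% highest doublet scores, single sublibraries and leaving out each library. Exon lengths came from GENCODE M21. The named genes were the 10 members, the 8 other pathway genes with the smallest adjusted p in BEC-like cells, the 3 genes most like each member, and markers beside the results they touch. Others were chosen after their values were seen. Members, gene lists and tests were chosen with earlier results of these data known. Replicates are separate mice. The gene most like Jag2 is not reported here.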

Additional observations from a re-analysis of the deposited data

Results flagged for a closer look

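The difference between the groups in Notch1 was compared between classes. The test of the difference itself gave -1.93 on the log2 scale for BEC-like against mesenchymal-like cells and -2.11 for BEC-like against endothelial-like cells. The first was called by edgeR under all 10 alternatives tried and the second under 4 of 10 (edgeR adjusted p from 0.00636 to 1). Notch1 was lower in both BDL libraries than in both sham libraries in the summed counts of BEC-like cells only. The thinned shares of mesenchymal-like cells with a Notch1 UMI were also lower in both BDL libraries (-6.04 percentage points). The endothelial-like sums held 14 to 38 UMIs of Notch1 per library.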

How the results depend on the processing

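No paired analysis was possible because nothing in the sample labels ties a sham mouse to a BDL mouse. With 2 libraries a group, single libraries decided many counts. Leaving out each library in turn, edgeR called 1325 to 6409 genes in BEC-like sums, 185 to 893 in mesenchymal-like sums and 1 to 48 in endothelial-like sums. The class differences numbered 285 to 766 genes against mesenchymal-like and 17 to 122 against endothelial-like cells. Of the 10 Notch genes 2 to 7 were called in BEC-like sums and 0 in the other classes. These 2 were Notch1 and Hes1 without sham replicate 1, and Notch1 and Jag1 without sham replicate 2. The share of all genes called in BEC-like sums without each library is given above with the other pathway genes. The Notch count was lowest where that share was low and highest where it was highest, so it moved with the background. Sublibrary 1 alone, with all 4 libraries, called 2 Notch genes, against 10.8% of 5219 genes. In mesenchymal-like sums DESeq2 called 324 genes, no filter gave 1078 with 1 Notch gene (Dll4), and removal of the highest doublet scores gave 874. In endothelial-like sums these gave 17, 52 and 49, and thinned sums gave 1. For the class differences, removal of the highest doublet scores gave 1464 genes against mesenchymal-like cells, and thinned sums gave 54 against endothelial-like cells.

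Directions turned only for genes that had not been called, in log2 units. Leaving out 1 library gave -0.95 to 0.42 for Notch3 in BEC-like sums, where sublibrary 3 gave 0.53. In mesenchymal-like sums it gave -0.41 to 0.011 for Notch1, -0.50 to 0.042 for Notch3, -0.31 to 0.19 for Jag1 and -0.29 to 0.24 for Hes1, where DESeq2 gave 0.0012. In endothelial-like sums it gave 0.091 and 0.094 for Jag1, in the 2 fits that kept the gene, and -0.70 to 0.46 for Hes1. Jag1 was at 0.050 there with no filter, and Dll4 at -0.13 without the highest doublet scores. For the difference between BEC-like and mesenchymal-like cells it gave -0.91 to 1.03 for Notch3 and -0.12 to 1.21 for Heyl. Notch3 was at 0.14 there without the highest doublet scores and 0.012 in thinned sums. The cause was not tested.

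The share of BEC-like cells with a UMI moved with depth. At 2000 UMIs a cell the differences were -7.36 points for Notch1, 8.22 for Jag1 and -9.19 for Hes1. Without thinning they were -6.98, 32.8 and 1.12 points. Leaving out 1 library at 1000 UMIs gave -4.00 to -3.93, 4.55 to 6.08 and -8.43 to -4.06 points.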

Other observations

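Notch2 and Jag1 were also counted in the cells outside the 3 classes. In 98 macrophage-like cells (cluster c15) Notch2 had 163 UMIs, 338 CPM (exact Poisson 95% interval 288 to 394), and Jag1 had 62 UMIs, 129 CPM (98.5 to 165). These cells also met the limits for 12 biliary markers. The 43 hepatocyte-like cells of cluster c16, which met the limits for 7 biliary and 7 hepatocyte markers, had 327 CPM of Notch2 (268 to 396). The 34 of cluster c17, which met them for 0 biliary and 10 hepatocyte markers, had 51.5 CPM (20.7 to 106). In the unnamed cluster c18 (29 cells) Notch2 had 7 UMIs, 74.4 CPM (29.9 to 153), and Notch1 had 1. Nrarp had its highest levels among BEC-like clusters in c10, which was led by cell-cycle genes such as Mki67 and Cenpf, at 12.4 CPM in pooled libraries (37 UMIs, exact Poisson 95% interval 8.74 to 17.1), against at most 5.49 CPM in any other BEC-like cluster. The endothelial-like cluster c12 had 19.6 CPM from 6 UMIs (7.20 to 42.7).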
